A study of Mus musculus with 4 samples.

Results

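Hair follicle and hair shaft genes were followed in newborn skin without loricrin, the most abundant protein of the cornified envelope that surrounds dead outer epidermal cells. The set holds 32 listed genes and all genes whose symbol starts with Krtap (keratin-associated proteins). Of these genes, 50 had a probe set of their own on at least 1 of the 2 array types, out of 13674 named genes. They are 24 Krtap genes and 26 of the 32 listed genes. Krt33a, Krt85, Dsg4, Gprc5d, Lhx2 and Edar had no probe set listed under these names and were not analysed here. The first array type measured 36 of the 50 genes and the second 16, and Foxn1 and Ptch1 were on both. Another 5 probe sets name a member together with other genes and are described apart.

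The groups were loricrin knockout and wildtype mice, both of strain FVB/N, and whole skin was taken from both at postnatal day 0. Each of the 2 array types carried 1 knockout and 1 wildtype array, so 4 arrays were read in all. The labels do not give the sex, the litter, the design of the loricrin allele or whether animals were pooled, nor whether the second array of a genotype held RNA of another animal. With 1 array per genotype and type there was no replicate error for any single ratio and no test within a type.

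Hair follicles grow down from the epidermis under signals exchanged with a condensate of dermal cells, the dermal papilla. Ectodysplasin (Eda) and its receptor help to place the follicles, and Sonic hedgehog (Shh), read out through its receptor Ptch1 and the transcription factor Gli1, drives their downgrowth. In a growing follicle, matrix cells differentiate into the inner root sheath, which carries its own keratins, and into the hair shaft, whose keratins are embedded in a matrix of keratin-associated proteins cross-linked by disulfide bonds. At birth mouse pelage follicles are still being formed, and the first hair shafts have not yet emerged from the skin. FVB/N is an albino strain.

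Signals are MAS5 intensities. A floor was set at the mean of the 40th percentiles of both arrays of a type, 77.6 for the first type and 133 for the second, and a fold with 1 signal below it is a bound, written as "at least". Higher and lower below mean at least 2-fold in knockout over wildtype. Loricrin read 2013 in knockout skin and 41224 in wildtype skin on the first type and had no probe set listed on the second. Sex-linked transcripts differed between the genotypes. On the first type Xist, made in females, read 857 in knockout skin and 24.7 in wildtype skin, and the Y-linked Eif2s3y 42.7 in knockout skin and 1071 in wildtype skin. On the second the Y-linked Kdm5d read 12.2 in knockout skin and 976 in wildtype skin, while Xist was below the floor in both, so sex and genotype cannot be told apart. Of 8 dermal fibroblast markers on the first type, 6 were lower in knockout, with a summed signal of 4116 in knockout skin and 7898 in wildtype skin. The other 2, Dcn and Col1a2, had log2 ratios of -0.05 and 0.01. Of 4 measured erythroid markers, 3 were lower. Fewer cells of a type and less RNA per cell cannot be told apart in whole skin.

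The promoters shown here belong to genes on which the comparison below turns: Krtap16-1 and Krt73, with the largest positive ratios on the second array type, Krtap3-2 and Krtap3-3, which share the probe set with the largest negative ratio among keratin-associated proteins, and the regulators Msx1 and Ptch1. Each runs from 250 bases before to 50 bases after the annotated start, 5′ to 3′, from RefSeq on build GRCm38.p6. All 6 lie on the minus strand, Krtap16-1 at chr11:99986544-99986843, Krtap3-2 at chr11:99556804-99557103, Krtap3-3 at chr11:99550814-99551113, Krt73 at chr15:101802311-101802610, Msx1 at chr5:37824536-37824835 and Ptch1 at chr13:63565686-63565985. Capitals mark TATAAA (the TATA box), CTTTGAA (a form of the core bound by LEF and TCF factors, the nuclear partners of Wnt signalling) and CCAAT (the CCAAT box), searched on both strands.
Krtap16-1: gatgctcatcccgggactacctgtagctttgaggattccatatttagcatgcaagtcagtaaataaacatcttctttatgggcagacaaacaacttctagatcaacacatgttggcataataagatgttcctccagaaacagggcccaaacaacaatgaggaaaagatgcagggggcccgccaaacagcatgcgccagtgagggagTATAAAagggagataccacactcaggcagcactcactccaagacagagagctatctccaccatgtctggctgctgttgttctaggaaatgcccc
Krtap3-2: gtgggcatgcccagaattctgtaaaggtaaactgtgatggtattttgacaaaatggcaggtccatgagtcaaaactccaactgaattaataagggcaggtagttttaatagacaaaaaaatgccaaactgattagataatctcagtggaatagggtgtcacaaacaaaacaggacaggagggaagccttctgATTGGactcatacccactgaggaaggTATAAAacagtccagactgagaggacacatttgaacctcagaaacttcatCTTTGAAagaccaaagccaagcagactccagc
Krtap3-3: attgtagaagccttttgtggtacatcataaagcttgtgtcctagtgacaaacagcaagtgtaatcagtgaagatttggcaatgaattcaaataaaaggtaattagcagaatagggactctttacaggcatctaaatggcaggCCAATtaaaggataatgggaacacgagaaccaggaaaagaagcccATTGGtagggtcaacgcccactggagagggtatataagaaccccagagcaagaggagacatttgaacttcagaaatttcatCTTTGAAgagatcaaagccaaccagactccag
Krt73: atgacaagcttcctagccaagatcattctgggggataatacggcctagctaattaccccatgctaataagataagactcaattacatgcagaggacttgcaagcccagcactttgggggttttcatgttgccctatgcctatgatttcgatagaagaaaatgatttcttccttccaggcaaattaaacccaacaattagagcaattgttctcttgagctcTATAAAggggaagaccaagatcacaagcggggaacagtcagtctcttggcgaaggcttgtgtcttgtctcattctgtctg
Msx1: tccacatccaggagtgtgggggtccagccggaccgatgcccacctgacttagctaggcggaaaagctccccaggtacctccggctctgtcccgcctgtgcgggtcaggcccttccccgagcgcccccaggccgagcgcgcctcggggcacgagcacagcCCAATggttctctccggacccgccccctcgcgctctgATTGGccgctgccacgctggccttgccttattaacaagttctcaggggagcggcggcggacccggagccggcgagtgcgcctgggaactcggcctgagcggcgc
Ptch1: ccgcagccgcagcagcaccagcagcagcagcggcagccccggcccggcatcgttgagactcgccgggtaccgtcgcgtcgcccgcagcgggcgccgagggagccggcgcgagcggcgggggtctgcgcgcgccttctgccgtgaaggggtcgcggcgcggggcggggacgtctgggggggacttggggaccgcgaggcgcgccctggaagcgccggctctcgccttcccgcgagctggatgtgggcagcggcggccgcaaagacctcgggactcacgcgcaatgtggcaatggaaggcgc

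In these sequences TATAAA starts 44 bases before the start of Krtap16-1, 32 bases before that of Krtap3-2 and 30 bases before that of Krt73. CTTTGAA begins at base 269 of the sequence in both Krtap3-2 and Krtap3-3, past the annotated start. Msx1 holds CCAAT at 2 positions and neither of the other motifs, and Ptch1 holds none of them. RefSeq promoters were matched for 42 of the 50 genes. They were not found for Dlx3, Gli1, Krt35, Krt81, Krt86, Krtap12-1, Krtap9-1 and Shh. TATAAA was in 29 of the 31 matched promoters of keratin and keratin-associated protein genes (93.5%), against 13.6% of all 32851 RefSeq promoters. In the matched promoters of transcription factor and signalling members it was in 1 of 7. CTTTGAA was in 9 of the 31 (29.0%), against 5.14% of all promoters, and those 9 included all 3 matched type I hair shaft keratins. CCAAT was in 12 of the 31 (38.7%), against 37.4% of all. The motif counts describe these windows and were not set against expression.

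On the first array type 2 of the 36 genes were higher in knockout, Ptch1 and Krt86, where 0.836% of all 8251 genes were higher. Another 2 were lower, Msx1 and Krt35, where 1.38% of all genes were lower. On the second type Krtap16-1 was higher, 1 of 16 genes against 1.67% of all 7542, and none was lower, against 2.12% of all. No test stands behind these counts. The split of higher against lower depends on the scaling. With the arrays scaled on 9 bacterial spike-in probe sets instead, 13.5% of all genes were higher and 0.473% lower for the first type and 13.2% and 0.570% for the second, while among members 5 were higher and 1 lower for the first and 3 higher and none lower for the second. Directions are therefore relative to the typical gene. The largest folds among members that did not reach 2-fold were those of Selenbp1 on the first type, at 1.55-fold, and Krt73 on the second, at 1.77-fold. On the first type 12 of the 36 genes read at or below the floor in both arrays (33.3%, against 27.6% of all genes), and on the second 6 of 16 (37.5%, against 25.7%). For these 18 entries no ratio could be given.

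**Figure D1:**
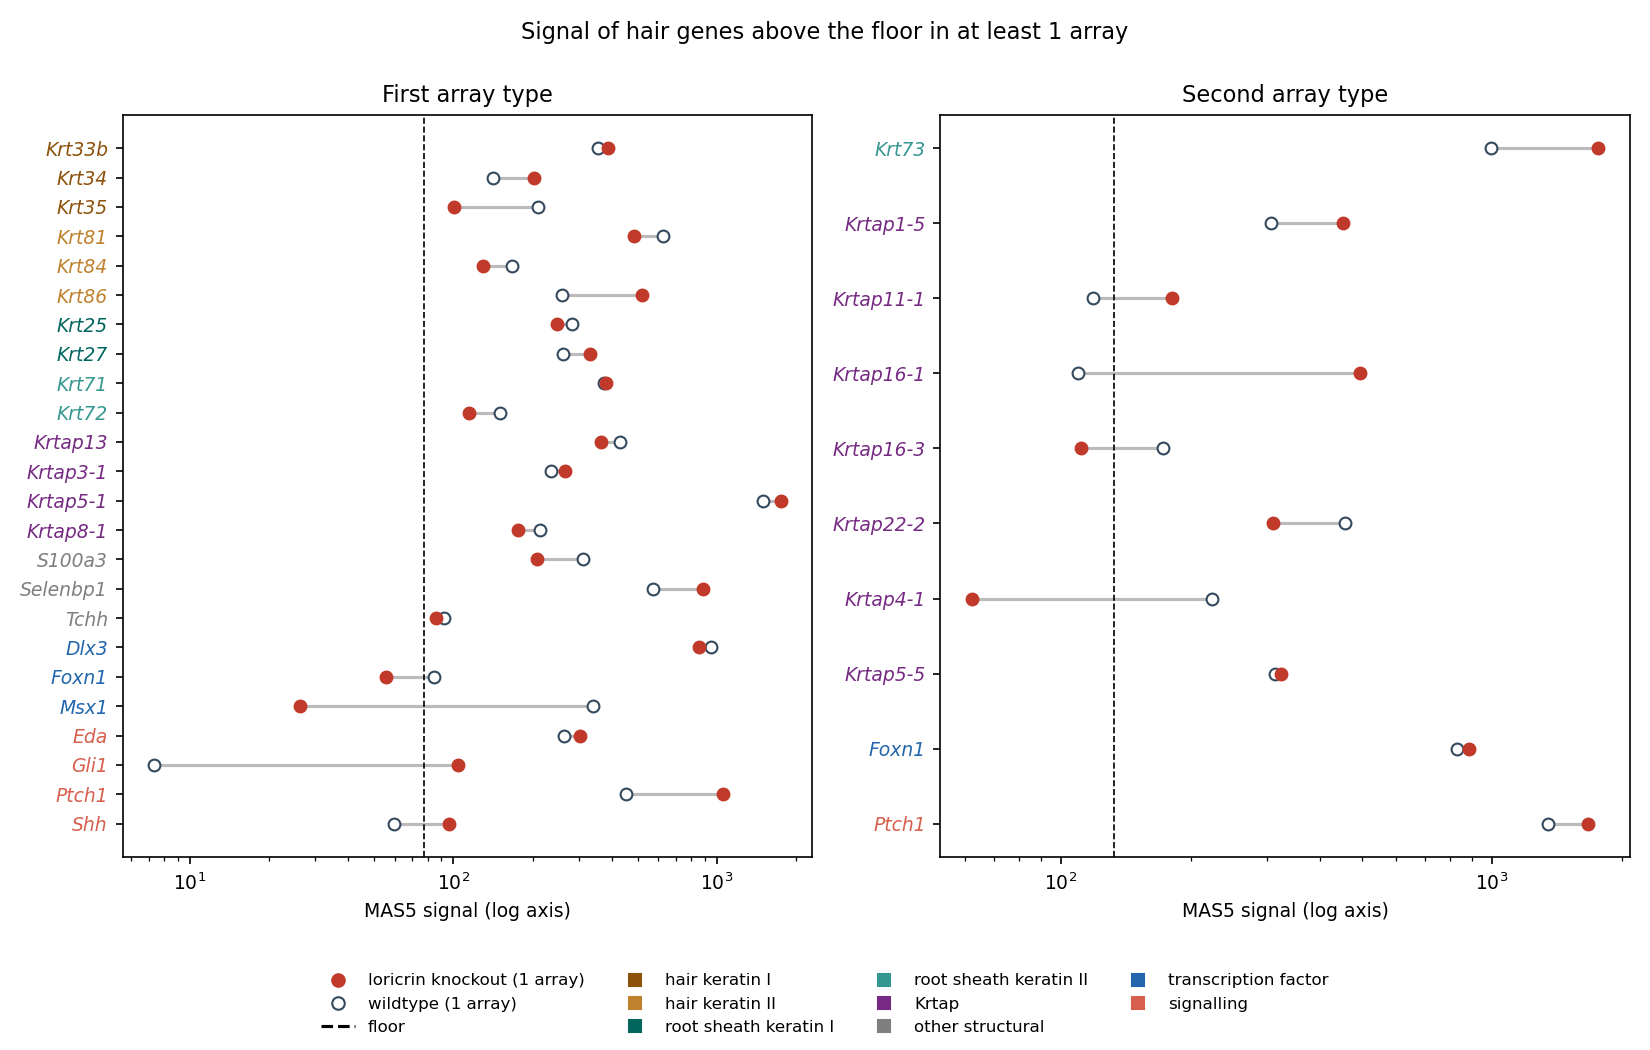
MAS5 signal (log axis) of the hair genes above the floor in at least 1 array, for 24 genes on the first array type and 10 on the second. Filled points are the knockout array and open points the wildtype array, the dashed line is the floor (77.6 and 133), and gene names are coloured by role. Msx1, with 26.2 in knockout skin and 340 in wildtype skin, and Krtap16-1, with 494 in knockout skin and 109 in wildtype skin, both cross the floor, as does Gli1, with 104 in knockout skin and 7.32 in wildtype skin.

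Type I hair shaft keratins, the acidic partners of the hair filament, had ratios on both sides of 0. Krt33b read 387 in knockout skin and 353 in wildtype skin, a log2 ratio of 0.13. Krt34 read 202 in knockout skin and 141 in wildtype skin, a log2 ratio of 0.52. Krt35, which is made early in the hair matrix and cuticle, was the 1 type I member past 2-fold. It read 101 in knockout skin and 210 in wildtype skin, 2.08-fold lower, on a probe set marked as shared by a sequence family. A second Krt35 probe set, marked as designed under relaxed rules, read 134 in knockout skin and 137 in wildtype skin, a log2 ratio of -0.03. The fall of Krt35 therefore rests on 1 of its 2 probe sets. Krt31, of the hair cortex, read 23.9 in knockout skin and 66.7 in wildtype skin, both below the floor.

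Among the type II hair shaft keratins, the basic partners, 1 of 3 was higher. Krt86 read 519 in knockout skin and 258 in wildtype skin, 2.01-fold higher, just past the rule, on its 1 probe set, and fell short of it with median centring, quantile or loess scaling (down to 0.97). The other 2 had negative ratios that did not reach it. Krt81 read 486 in knockout skin and 622 in wildtype skin, a log2 ratio of -0.36, while its 3 other probe sets lay below the floor in both arrays. Krt84, also known from the papillae of the tongue, read 130 in knockout skin and 166 in wildtype skin, a log2 ratio of -0.36, on a family-shared probe set, and its other probe set was below the floor in both arrays. The hair shaft keratins thus had ratios on both sides of 0 within each type.

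Inner root sheath keratins form the filaments of the sheath that moulds the growing hair. None of the 4 on the first type passed 2-fold. The type I Krt25 read 248 in knockout skin and 281 in wildtype skin, and Krt27 read 331 in knockout skin and 260 in wildtype skin on a family-shared probe set, log2 ratios of -0.18 and 0.35. Of the type II members, Krt71 read 378 in knockout skin and 373 in wildtype skin, a log2 ratio of 0.02, and Krt72 read 114 in knockout skin and 151 in wildtype skin, a log2 ratio of -0.40. Krt73, another type II keratin of the sheath, was measured only on the second type and read 1766 in knockout skin and 996 in wildtype skin, a log2 ratio of 0.83. It was measured well above the floor in both arrays. Its ratio lay outside the range of the 4 on the first type, from -0.40 to 0.35. Krt26, of the root sheath and structural genes outside the set, was also measured on the second type. It read 382 in knockout skin and 239 in wildtype skin, a log2 ratio of 0.67.

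**Figure D2:**
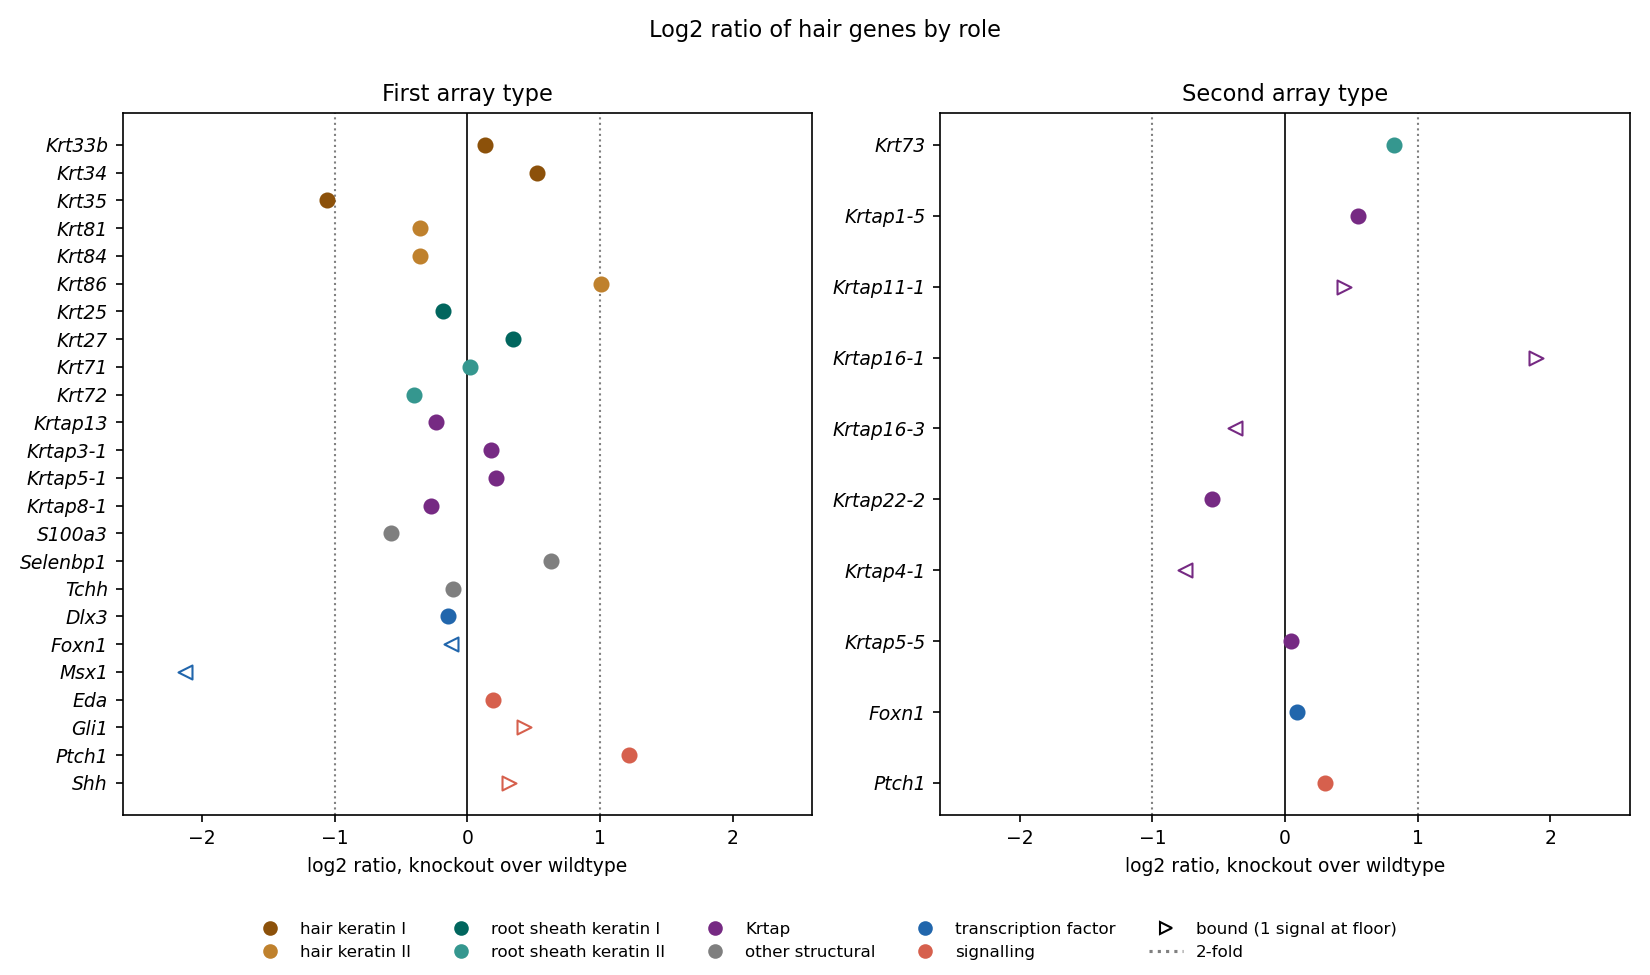
Log2 ratio of knockout over wildtype for the hair genes above the floor in at least 1 array, ordered by role and coloured by it. Dotted lines mark 2-fold and open triangles are bounds with 1 signal at the floor. Ptch1 (1.22) and Krt86 (1.01) lie right of the upper line and Krt35 (-1.06) and Msx1 (-2.13) left of the lower one on the first type, and Krtap16-1 (1.89) lies beyond it on the second.

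Keratin-associated proteins fill the space between the hair keratin filaments. Of the 24 with a probe set of their own, 13 were at or below the floor in both arrays (54.2%), 1 was higher and none was lower. The higher gene, Krtap16-1, read 494 in knockout skin and 109 in wildtype skin, at least 3.72-fold higher because the wildtype signal lay under the floor of 133. It had 1 probe set, without a suffix for shared sequence. Also on the second type, Krtap1-5 read 450 in knockout skin and 307 in wildtype skin, a log2 ratio of 0.55. Krtap11-1 read 181 in knockout skin and 118 in wildtype skin, at least 1.36-fold, and Krtap5-5, an ultra-high-sulphur type, read 324 in knockout skin and 314 in wildtype skin. On the other side of 0, Krtap22-2 read 311 in knockout skin and 456 in wildtype skin, a log2 ratio of -0.55. Krtap4-1 read 62.1 in knockout skin and 224 in wildtype skin, at least 1.68-fold, and Krtap16-3 read 111 in knockout skin and 172 in wildtype skin, at least 1.30-fold. The knockout signals of both lay below the floor.

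The 4 keratin-associated protein genes measured on the first type had log2 ratios between -0.27 and 0.22. Krtap5-1 read 1746 in knockout skin and 1501 in wildtype skin, and Krtap3-1 read 266 in knockout skin and 234 in wildtype skin. Krtap13 read 363 in knockout skin and 428 in wildtype skin, and Krtap8-1, of the glycine- and tyrosine-rich kind, read 176 in knockout skin and 213 in wildtype skin. Krtap8-1 differed most of the 4 between genotypes, at 1.21-fold. The other 7 on this type were below the floor in both arrays, namely Krtap12-1, Krtap14, Krtap19-5, Krtap5-4, Krtap6-2, Krtap6-3 and Krtap9-1, as were Krtap15, Krtap17-1, Krtap21-1, Krtap24-1, Krtap26-1 and Krtap4-7 on the second.

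Keratin-associated protein genes lie in clusters, and the RefSeq table puts 7 of the measured ones on chromosome 11, 13 on chromosome 16, 3 on chromosome 7 and 1 on chromosome 10. Of those on chromosome 11 with a mean signal above the floor, Krtap1-5, Krtap3-1 and Krtap16-1, all 3 had positive log2 ratios, from 0.18 to 1.89, the last a bound. A probe set shared by Krtap3-2 and Krtap3-3, of the same chromosome, went the other way (-1.89, described next). Krtap4-1, in the same cluster but with a mean signal below the floor, had the negative bound given above. On chromosome 16, 4 of 5 had negative ratios, from -0.55 to -0.24, and Krtap11-1 stood at 0.44, with bounds for Krtap11-1 and Krtap16-3, but all 5 were positive under spike-in scaling, from 0.02 to 0.74, where the medians of all genes were 0.70 and 0.65 on the 2 types. The genes of a cluster are not replicates, and this split was seen in the values and not tested.

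Probe sets that name several genes could not be given to 1 of them. One listed with Krtap3-2 and Krtap3-3 read 88.3 in knockout skin and 327 in wildtype skin on the first type, 3.71-fold lower, both signals above the floor. Krtap3-1, the neighbour of Krtap3-2 in the RefSeq table, had a log2 ratio of 0.18 on its own probe set. A probe set listed with Krtap2-4 and 2 predicted genes read 579 in knockout skin and 414 in wildtype skin on the second type. One listed with 12 genes, among them Krtap10-4 and Krtap10-10, read 1985 in knockout skin and 1989 in wildtype skin, and one that includes Krtap6-1 lay below the floor. So the signal of the family went both ways by more than 2-fold, with Krtap16-1 up and the Krtap3-2 and Krtap3-3 probe set down. That probe set kept 2-fold under spike-in scaling, at a log2 ratio of -1.20.

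Other proteins of the shaft and sheath included no gene past 2-fold. S100a3, a calcium-binding protein of the hair cuticle, read 208 in knockout skin and 310 in wildtype skin, a log2 ratio of -0.58, and its second probe set, with a suffix for shared sequence, read 77.1 in knockout skin and 124 in wildtype skin, at least 1.59-fold in the same direction. These 2 probe sets lay close together. Selenbp1, a selenium-binding protein, read 889 in knockout skin and 574 in wildtype skin, a log2 ratio of 0.63, whereas a probe set shared with Selenbp2 read 63.4 in knockout skin and 136 in wildtype skin, at least 1.75-fold the other way. Trichohyalin (Tchh), the protein that hardens the inner root sheath, read 85.7 in knockout skin and 92.1 in wildtype skin, just above the floor, on a family-shared probe set, and its 2 other probe sets were below it. Padi3, the peptidylarginine deiminase that acts on trichohyalin and S100a3, read 18.1 in knockout skin and 59.2 in wildtype skin, both below it.

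Of the transcription factors, Msx1, a homeobox factor of developing ectoderm and mesenchyme, was lower. It read 26.2 in knockout skin and 340 in wildtype skin, at least 4.38-fold, and the knockout signal lay below the floor. Its relative Msx2, which is needed for hair shaft differentiation, read 10.1 in knockout skin and 57.9 in wildtype skin, both below the floor, so no fold can be given. Dlx3, a homeobox factor required for hair shaft and root sheath formation, read 855 in knockout skin and 947 in wildtype skin, a log2 ratio of -0.15. Dlx2 was below the floor in both arrays. Foxn1, the factor missing in nude mice, read 885 in knockout skin and 830 in wildtype skin on the second type, a log2 ratio of 0.09, and 55.8 in knockout skin and 84.3 in wildtype skin on the first, near the floor. On the first type, the only one that measured Msx1, 6 of 8 dermal fibroblast markers were lower, with Dcn and Col1a2 at -0.05 and 0.01. None of the 8 had a probe set of its own on the second type. The part of these markers in the Msx1 value was not tested.

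The hedgehog members included the largest positive ratio on the first type. Ptch1, the receptor and a transcriptional target of the pathway, read 1056 in knockout skin and 453 in wildtype skin, 2.33-fold higher. A second Ptch1 probe set on the same type read 131 in both arrays, a log2 ratio of -0.01. Yet another probe set, on the second type, read 1669 in knockout skin and 1352 in wildtype skin, a log2 ratio of 0.30. Gli1, the other standard target, read 104 in knockout skin and 7.32 in wildtype skin, at least 1.35-fold, since its knockout signal was itself near the floor. Shh, the ligand, read 96.4 in knockout skin and 59.9 in wildtype skin, at least 1.24-fold. Gli1 and Shh were above the floor in the knockout array alone, so with signals raised to the floor their ratios could only be positive. Their mean signals lay below it. Ptch1, on its brightest probe sets, had positive ratios on both types under each of the 5 other scalings, and passed 2-fold on the first. Since its brightest probe set on the first type was past 2-fold to begin with, its positive sign there under other scalings adds no support.

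Genes on both array types allowed 1 fit over all 4 arrays, limma with the array type as a block, on 1081 genes whose mean signal lay above the floor on both. Ptch1 was the only member in it. Its mean log2 ratio was 0.76 (SE 0.27), positive on both types, with an adjusted p of 0.427 from limma and an unadjusted p of 0.0117. Under spike-in scaling, which raised the ratios of all genes, it was 1.43 with an adjusted p of 0.0252 from limma. Over all genes 1 passed the adjusted p of 0.05 (0.0925%), and 110 had an unadjusted p under 0.05. The fit left 1 residual degree of freedom per gene, to which limma added 13.9 prior ones estimated from all fitted genes together. The variance used for Ptch1 was therefore set mostly by other genes. Its p-values do not measure how far its own log2 ratios, 1.22 and 0.30, lay apart. Nothing says that the arrays held RNA of separate animals. The p-values thus rest on disagreement between array types, pooled over genes, and measure no spread between animals.

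**Figure D3:**
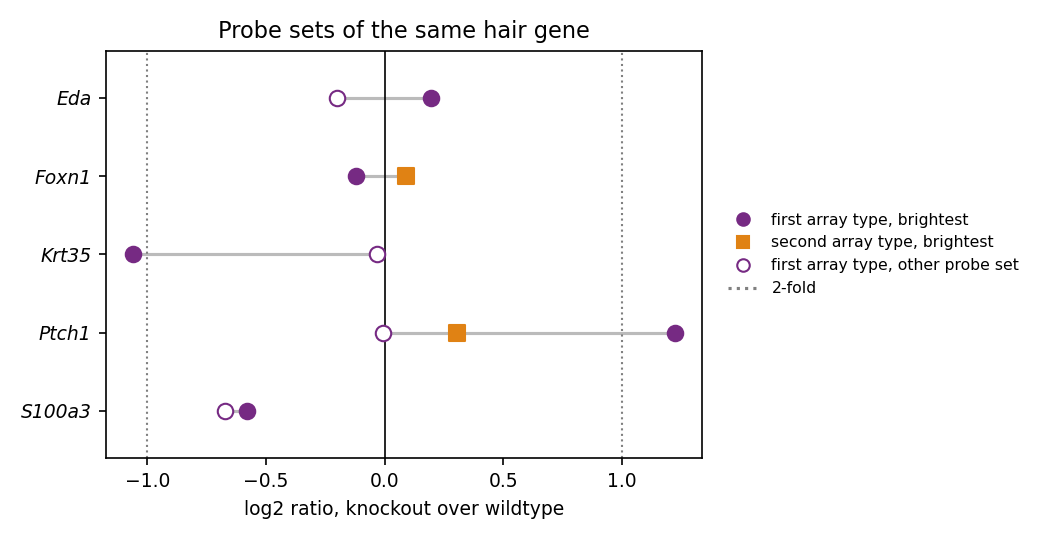
Log2 ratio of knockout over wildtype for the 5 hair genes with more than 1 probe set above the floor in at least 1 array. Circles are the first array type and squares the second, filled for the brightest probe set of a type and open for another one, with signals below the floor set to it. The circles of S100a3 nearly coincide (-0.58 and -0.67), whereas those of Ptch1 (1.22 and -0.01) and Krt35 (-1.06 and -0.03) do not.

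That spread is common to these arrays. Among 900 genes of the first type with at least 2 probe sets whose mean signal lay above the floor, the brightest 2 differed by a median of 0.31 in log2 ratio. For 29 of them the brightest was past 2-fold, and in 5 of these the next was past 2-fold in the same direction. On the second type the counts were 32 and 4 among 1156 genes. Of the 5 hair genes past 2-fold, Ptch1 and Krt35 had a second measured probe set, which did not pass, and Krt86, Msx1 and Krtap16-1 had no other probe set.

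The other signalling members gave no ratio past 2-fold. Eda read 302 in knockout skin and 263 in wildtype skin, a log2 ratio of 0.20, and a second probe set with a suffix for shared sequence read 52.9 in knockout skin and 89.2 in wildtype skin, at least 1.15-fold the other way. The remaining Eda probe set was below the floor. Fgf5, the growth factor that ends the hair growth phase and whose loss gives angora mice, read 4.28 in knockout skin and 6.21 in wildtype skin, far below the floor.

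The rest of the follicle programme was described with 8 lists of 136 genes. Of 90 with a probe set on the first type, members left out, 4 were higher (4.44%) and 3 lower (3.33%), and of 42 on the second, 1 was higher and 2 lower (2.38% and 4.76%). All genes had shares of 0.836% and 1.38% for the first type, and 1.67% and 2.12% for the other, in the same order. Of the other hedgehog pathway genes, none of 8 passed 2-fold on the first type and none of 4 on the other. Their medians were 0.29 and 0.31, with the transducer Smo at 0.48 and the co-receptors Gas1 at 0.30 and Boc at 0.63. The ligands Ihh and Dhh went the other way on the first type, at -0.40 and -0.29, with both signals above the floor. The inhibitor Sufu stood at 0.11 on its brighter probe set, while the other read 368 in knockout skin and 175 in wildtype skin, 2.10-fold higher. None of 6 and 3 ectodysplasin pathway genes passed, with medians of 0.09 and 0.35. The kinase adaptor Tab2 stood at -0.06 and Nfkbia at 0.22. Ikbkg stood at 0.35 on the second type (-0.09 on its other probe set) and at 0.02 on the first. The kinase Map3k7 read 371 in knockout skin and 187 in wildtype skin on the second type, 1.98-fold and just short of the rule. On the first type Map3k7 read 233 in knockout skin and 207 in wildtype skin, a log2 ratio of 0.17.

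Follicle transcription factors outside the set showed 1 change. Of 10 on the first type none passed, with a median of 0.21, and of 9 on the second Trps1, a repressor whose mutation causes sparse hair in humans, was lower. It read 158 in knockout skin and 368 in wildtype skin, 2.33-fold, and of its 2 other probe sets 1 had a log2 ratio of -0.90 and the other was at least 1.42-fold in the same direction, with the knockout signal below the floor. Gata3, which specifies the inner root sheath, had log2 ratios of 0.56 and 0.46 on the first and second types. The repressor Prdm1 stood at 0.21 and Ovol1, a target of Wnt signalling in skin, at 0.12 on its brighter probe set and -0.10 on the other.

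Growth signals of the follicle split. Of 23 on the first type Fgfr2, the epithelial receptor for dermal fibroblast growth factors, was higher and Bmp4, a signal of the dermal papilla, was lower, with a list median of -0.12. Fgfr2 read 1986 in knockout skin and 751 in wildtype skin, 2.65-fold, while its other probe sets gave at least 1.89-fold in the same direction, with the wildtype signal below the floor, and a log2 ratio of 0.00. Bmp4 read 85.4 in knockout skin and 210 in wildtype skin, 2.46-fold lower, with the knockout signal near the floor, and on the second type 112 in knockout skin and 137 in wildtype skin, at least 1.03-fold. None of 9 passed on the second type. Ctnnb1, the Wnt effector beta-catenin, stood at -0.10, Bmp2 at -0.00 on the second type and Bmpr1a at -0.29.

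Markers of the dermal papilla were lower where they passed. Of 10 on the first type 2 were lower, Bmp4 and Prom1, and none was higher. Prom1 read 70.8 in knockout skin and 188 in wildtype skin, at least 2.42-fold. Vcan, a papilla proteoglycan, read 219 in knockout skin and 303 in wildtype skin, a log2 ratio of -0.47. Of 3 on the second type 1 was lower, the Wnt inhibitor Wif1, which read 35.8 in knockout skin and 391 in wildtype skin, at least 2.94-fold. Since these 3 were named for passing 2-fold, their negative signs under the 5 other scalings add no support. Under spike-in scaling 1 of them passed 2-fold. The knockout signals of Prom1 and Wif1 lay below the floor. The list also holds genes that other dermal cells use, and the dermal fibroblast markers that were lower on the first type (6 of 8, summed signal 4116 in knockout skin and 7898 in wildtype skin) moved the same way. Of the 8, Col3a1, Lum and Pdgfra were below the floor in knockout, whereas Dcn and Col1a2 stood at -0.05 and 0.01, and their part in the papilla values was not tested.

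Epithelial stem cell and placode markers that passed were higher, though Lgr6 fell short under median centring and loess. Of 11 on the first type 2 were higher and none lower, the integrin Itga6 with 560 in knockout skin and 183 in wildtype skin (3.07-fold) and the chemokine Cxcl14 with 1285 in knockout skin and 424 in wildtype skin (3.03-fold). Of 2 on the second type 1 was higher, Lgr6, a stem cell receptor of the upper follicle, with 856 in knockout skin and 427 in wildtype skin, just past the rule. The other, Krt15, stood at 0.25. On the first type Itgb1 stood at 0.18 (-0.13 on its other probe set), Plet1 at 0.29, Postn at -0.11, Barx2 at -0.20 and Tnc at -0.54. Cd34 read 40.6 in knockout skin and 115 in wildtype skin, at least 1.48-fold and short of the rule, with the knockout signal below the floor. Krt15, Lgr5 and Lrig1 were below the floor in both arrays of this type. The list median there was 0.18. Itga6 and Itgb1 are also made by basal epidermis between follicles. On the same array type the basal keratinocyte factor Trp63 read 1906 in knockout skin and 913 in wildtype skin, 2.09-fold higher. Of 8 epidermal keratinocyte markers it was the only one higher, and loricrin the only one lower. Krt1, Krt10 and Krtdap had log2 ratios of -0.51, -0.47 and -0.58, and Krt2 had 0.25. The basal keratins Krt5 and Krt14 gave no ratio, since neither genotype read above the floor for them. The part of basal epidermis in the values of Itga6 and Itgb1 was not tested.

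Of 34 further root sheath, companion layer and structural genes none of 17 passed 2-fold on the first type and none of 12 on the other, with medians of 0.15 and -0.01. The brightest were Cdsn and Pkp1 at 0.01 each, Cst6 at 0.05 and Krt79, a keratin of the follicle opening and sebaceous duct, at 0.15. Many of them are epidermal as well. Sebaceous gland markers went both ways on the first type, with 1 of 7 higher and 1 lower. The desaturase Scd1 read 3208 in knockout skin and 1300 in wildtype skin, 2.47-fold higher, and its second measured probe set stood at 0.74. The lipid droplet protein Plin2 read 181 in knockout skin and 412 in wildtype skin, 2.27-fold lower. Fasn, a fatty acid synthase, stood at 0.07 on the first type. Its second-type probe set, where it was the only marker measured, read 49.9 in knockout skin and 255 in wildtype skin, at least 1.92-fold and short of the rule, with its other probe set at -0.16.

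Melanocytes, the pigment cells that settle in the follicle, were read through 7 markers on the first type, none of them past 2-fold, with a summed signal of 2956 in knockout skin and 2075 in wildtype skin. Of the 2 on the second type 1 was higher, with summed signals of 5076 in knockout skin and 2814 in wildtype skin. The part of these cells in the values of the hair genes was not tested.

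Across the hair genes with a mean signal above the floor, the median log2 ratio on the first type was -0.10 over 21 genes. It was 0.02 over all 5653 genes. Of the 21, 10 were positive, against 52.6% of all genes. That small negative median changed sign in 3 of the alternatives given in the closing section. For the second type the median was 0.30 over 9 genes, against 0.01 over all 5137 genes, and 7 of the 9 were positive. The types share 2 genes of the set, so the medians describe mostly different genes.

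**Figure D4:**
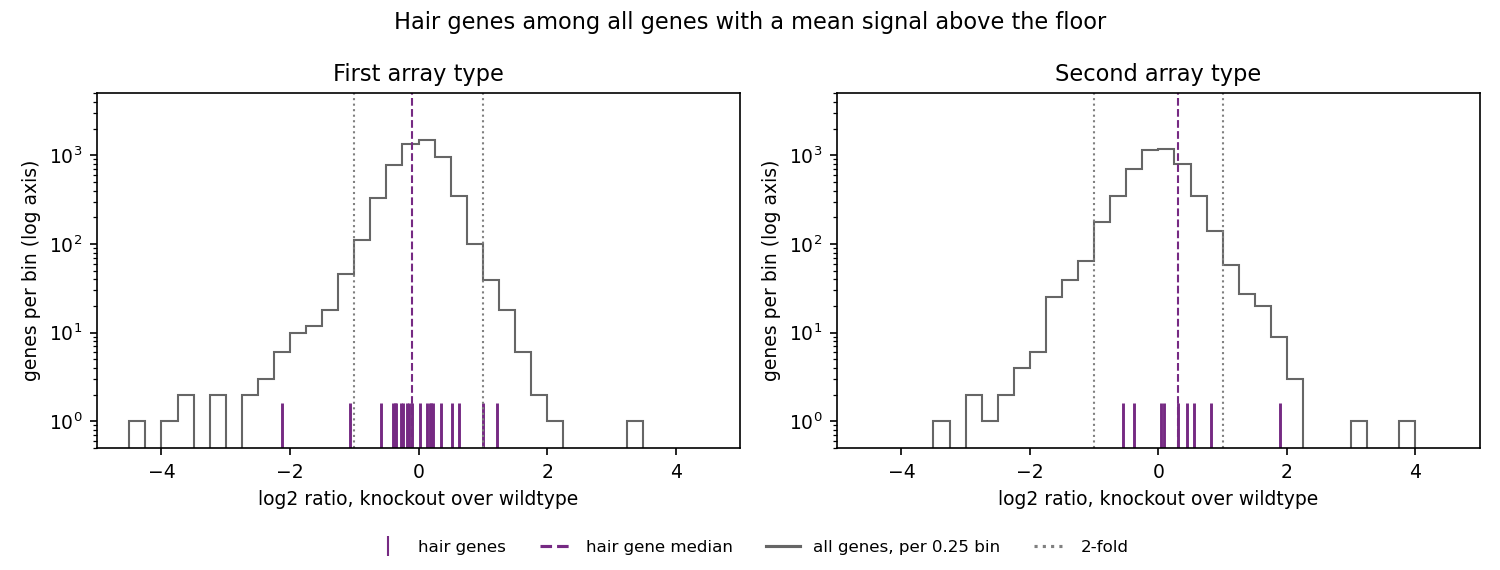
Log2 ratio of knockout over wildtype for all genes with a mean signal above the floor, as the number of genes per bin on a log axis (grey outline), with each hair gene as a purple tick and their median as a dashed line. The hair genes lie within the range of the other genes, with the median at -0.10 on the first array type and 0.30 on the second.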

How the data were processed

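Total RNA of whole skin was biotin-labelled and hybridised to 2 Affymetrix array types, 1 array per genotype on each. The values are the authors' deposited intensity signals, computed by MAS5 as the submitters' processing notes state. The sources used here give no version, scaling target or detection calls. All 4 columns were matched to samples by name. Their 2% trimmed means lay between 500.2 and 500.4.

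Within a type the 2% trimmed means of both arrays were made equal, signals were raised to the floor and log2 ratios of knockout over wildtype were taken, in Python 3.11.15 with numpy 2.4.6. A mean signal above the floor refers to the mean of the log2 signals. The 66 control probe sets per type were left out, leaving 12422 and 12411. Of these 10833 and 10581 name 1 gene, 396 and 178 several and 1193 and 1652 none, in the platform annotation. Symbols were updated by gene ID with RefSeq (GRCm38.p6). A gene took its probe set of highest mean signal. Limma 3.58.1 (lmFit, eBayes, Benjamini-Hochberg) was used in R 4.3.3 with the array type as a block. The steps were tested on simulated data.

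The members and lists were chosen with earlier results of these data known. The naming rule took loricrin, all members, and of each other hair list the genes past 2-fold and the 2 brightest per type. Genes of cell type marker lists, and others beyond it, were named after their values were seen. Alternatives covered scaling, floor, rule of size, probe set choice and the block. The number of arrays limits the precision.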

Additional observations from a re-analysis of the deposited data

How the results depend on the processing

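Of the 5 hair genes past 2-fold, none changed sign under the alternatives, which genes picked for their size would seldom do. Krtap16-1, Msx1 and Ptch1 each kept 2-fold under 9 of 10. Krtap16-1 and Msx1 lost it when the floor was the 60th percentile (0.66 and -0.51), and Ptch1 with the median over probe sets (0.61). Krt86 kept it under 7 of 10 and was 0.97 at its lowest, losing it with median centring, quantile and loess. Krt35 kept it under 5 of 9, and its ratio was -0.37 under spike-in scaling and 0 when the floor was the 60th percentile. Not every alternative could move a ratio, so these counts overstate how firmly 2-fold was kept. The deposited values already had nearly equal trimmed means. Krtap16-1, Msx1 and Krt86 had 1 plain probe set each, so both choices of probe set returned their main ratio. For Ptch1 plain probe sets alone did the same. Scaling on 9 bacterial spike-in probe sets moved the median of all genes to 0.70 for the first type and 0.65 for the second. Under it 5 members of the first type were higher and 1 lower and 3 of the second were higher, the member medians were 0.54 and 0.74, and 1 member, Ptch1, passed limma (log2 ratio 1.43, adjusted p 0.0252). Over the other alternatives with the block the adjusted p of Ptch1 in limma lay between 0.0613 and 0.719. On the first type, 1 member was higher with median centring, quantile, loess or the median over probe sets, and 1 was lower with quantile, the median over probe sets or plain probe sets without a suffix for shared sequence. Over these settings 0.606% to 0.885% of all genes of that type were higher and 1.08% to 1.47% lower. The floor moved the counts most. With it at the 20th percentile 4 members of the first type were higher and 5 lower, and 1 of the second was lower, where the median was 0.51. When it was the 60th percentile none was lower on the first type and none higher on the second (0 and 0). Of all genes 0.376% were then lower on the first type and 0.385% higher on the second. With no floor and a pseudocount of 1, 4 members of the first type were higher and 6 lower, and 4 of the second were higher and 1 lower. Over all genes the shares were then 5.31% and 8.57% for the first type and 8.15% and 9.35% for the second. A rule of 1.5-fold gave 2 higher and 1 lower on the second type, and one of 3-fold gave 0 higher and 1 lower on the first. No share of all genes is given for these rules, so their counts have no background beside them. The first-type median was -0.0083 with quantile, 0.15 when the floor was the 60th percentile and 0.021 with plain probe sets only. The second-type median stayed positive throughout, down to 0.20. Calls over all genes in limma moved as well, from 1 of 1081 to 0 with quantile, the floor at the 20th percentile or no floor, 6 with it at the 60th, 8 to 10 with median centring, loess, the median over probe sets or plain probe sets, and 591 with spike-in scaling. The block in limma pairs the knockout and wildtype arrays of a type. Without this replicate block the log2 ratio of Ptch1 was 0.76 with an adjusted p of 1.00 in limma, 0 members and 0 genes passed and 0 had an unadjusted p below 0.05, since level differences between array types then enter the residual. Leaving out an array leaves no residual degrees of freedom in the fit and was not run. Signals near the floor, such as those of Gli1, Shh, Tchh and Krt35 in knockout, carry the least weight.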
